A study of Mus musculus with 16 samples.

Results

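The genes described here encode, with few exceptions named below, the nuclear-encoded subunits of oxidative phosphorylation in CD11b+ brain cells of mice. They were chosen by name alone: every row of the count table whose gene name begins with Nduf followed by a, b, c, s or v and a digit, is Sdha, Sdhb, Sdhc or Sdhd, begins with Uqcr, begins with Cox and a digit from 4 to 8, or begins with Atp5. Names with the pseudogene mark -ps were left out, and a gene needed more than 10 counts in at least 4 of the 16 libraries. Of the 24421 rows of the table, 84 matched these names and 81 passed the count filter, which 14565 genes passed in all. The rule itself uses no difference between groups. By complex, 34 of the 81 belong to complex I, 4 to complex II, 8 to complex III, 18 to complex IV and 17 to complex V. The 3 rows that did not pass were Ndufs5 and Cox8c, with 0 counts in each library, and Cox7b2, with at most 2 counts in a library. Of the 42-base stretches of the Ndufs5 transcript, 43.8% also occur in another annotated gene. Cox8c and Cox7b2 are testis forms.

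Oxidative phosphorylation takes place at the inner mitochondrial membrane. Complexes I (NADH dehydrogenase) and II (succinate dehydrogenase) pass electrons to ubiquinone, complex III (cytochrome bc1) passes them to cytochrome c, and complex IV (cytochrome c oxidase) passes them to oxygen, while complex V (ATP synthase) uses the resulting proton gradient to make ATP. Core subunits mostly carry the redox centres or the catalytic sites, and most of the complexes have accessory subunits around them. Several subunits of complexes IV and V exist as isoforms from separate genes. In microglia, as in other macrophages, the balance between oxidative phosphorylation and glycolysis is known to shift with activation.

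The study asked how malnutrition, alone or with exposure to gut bacteria, alters microglia. C57BL/6J female mice were placed after weaning on standard chow (CON) or on an isocaloric diet low in protein and fat (MAL) for 1 month, and a further malnourished group also received a mix of E. coli and Bacteroidales by gavage (MAL-BG), while CON and MAL mice received saline by gavage. Cells were held on magnetic beads through CD11b, an integrin chain that microglia share with the rest of the myeloid lineage, so each library is a mixture of the cells retained. By flow cytometry the paper reported that microglia made up most of the CD11b+ samples, and it observed no peripheral immune cell infiltration. The labels name cortical tissue as the source, whereas the methods name whole cerebra. RNA was sequenced as 1 library per mouse, from 4 mice on chow, 5 malnourished mice and 7 that also received bacteria. Replicate numbers below are those of the columns of the count table and match no sample title.

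Gene counts per library ranged from 10312703 to 13461574 in CON, from 10864121 to 12819982 in MAL and from 14191791 to 18705202 in MAL-BG, so each MAL-BG library was deeper than all others. All 14 listed microglia markers passed the filter, with summed levels of 20391 to 33712 CPM (counts relative to the scaled library total) in CON, 20725 to 36051 CPM in MAL and 45204 to 61771 CPM in MAL-BG, and 10 of 14 were higher DEGs (defined below) versus CON. Markers of other cells were present too. The 12 choroid plexus markers summed to 10850 to 41773 CPM in CON, 5054 to 32916 CPM in MAL and 1485 to 13294 CPM in MAL-BG, and 12 of 12 were lower DEGs in MAL-BG versus CON. The 14 neuronal markers summed to 125 to 603 CPM in CON, 145 to 498 CPM in MAL and 31.2 to 91.3 CPM in MAL-BG, and 13 of 14 were lower DEGs versus CON. Of 11 neutrophil markers 10 were higher DEGs versus CON. The list summed to 600 to 14272 CPM in MAL-BG, against 489 to 1230 CPM in CON and 522 to 1104 CPM in MAL. Other myeloid lists did not rise in this way. Of 10 monocyte markers 3 were lower and 0 were higher DEGs versus CON by edgeR, and of 10 border macrophage markers 2 and 0. Astrocyte markers (6 of 10 lower DEGs versus CON) summed to 312 to 680 CPM in CON and 166 to 330 CPM in MAL-BG, ependymal markers (8 of 10 lower) to 154 to 276 and 36.6 to 127 CPM, and lymphocyte markers (5 of 8 higher) to 44.8 to 73 and 106 to 225 CPM. The part of these other cells in the results below was not tested. In a mixture of cells, fewer cells of a type and less RNA per cell cannot be told apart.

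Together, the 81 genes took a smaller share of the gene counts in most MAL-BG libraries than in most CON libraries, but the groups overlapped. In CON the share was 0.506%, 0.956%, 0.814% and 0.81% of counts in replicates 1 to 4 (mean 0.772% ± 0.189, SD, n = 4). In MAL it was 0.553%, 0.835%, 0.728%, 0.536% and 0.732% in replicates 1 to 5 (mean 0.677% ± 0.128, SD, n = 5). In MAL-BG the lowest share was 0.512%, the median 0.624% and the highest 0.737% (mean 0.62% ± 0.0699, SD, n = 7). CON replicate 1 and MAL replicates 1 and 4 were near the lowest MAL-BG library, MAL replicates 3 and 5 were near the highest, and the other 4 lay above all MAL-BG libraries. The same 3 libraries had the lowest choroid plexus marker sums of their groups, 10850 CPM in CON replicate 1, 9742 CPM in MAL replicate 1 and 5054 CPM in MAL replicate 4, against 21798 to 41773 CPM in the other 6. The part of choroid plexus RNA in this spread was not tested.

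**Figure D1:**
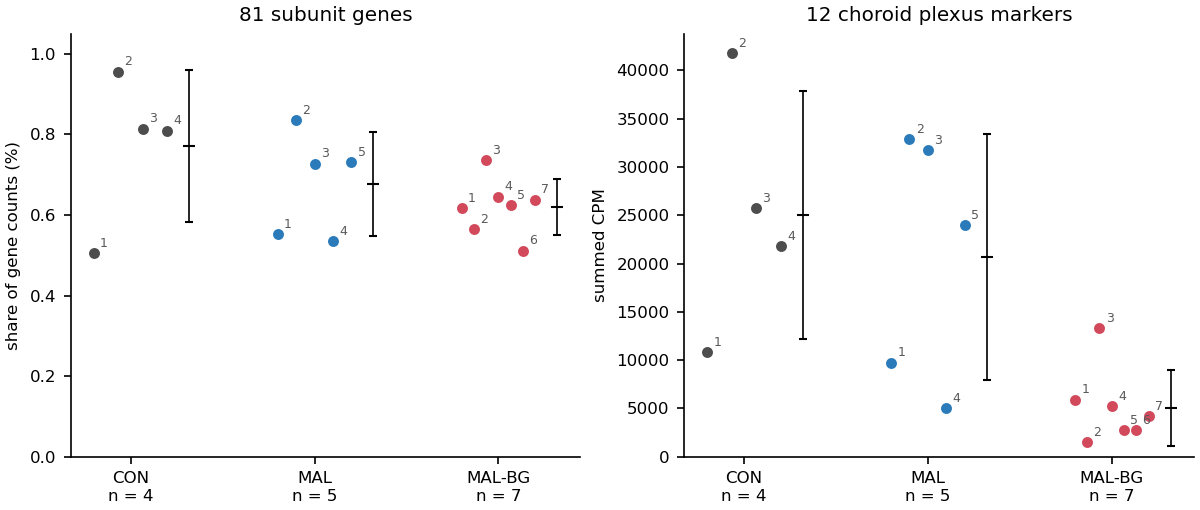
Left, the share of gene counts on the 81 subunit genes in percent for each library. Right, the summed CPM of 12 choroid plexus markers. Points are libraries with their replicate number, and bars are mean ± SD. CON replicate 1 and MAL replicates 1 and 4 are the lowest of their groups in both panels, and the MAL-BG libraries lie between 0.512% and 0.737% on the left.

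Differences between groups were tested with the quasi-likelihood test of edgeR on all 14565 genes, with Benjamini-Hochberg adjusted p, and a DEG had to pass both 0.05 on that adjusted p and 0.58, in either direction, on the log2 fold change. In MAL-BG versus CON, 13 of the 81 genes (16%) were lower DEGs, where 21.7% of all genes tested were lower DEGs. None was a higher DEG by edgeR or by DESeq2, where 11.4% of all genes tested were higher DEGs, although 5 of the 81 were higher at an unadjusted p under 0.05. By adjusted p alone, 18 of the 81 were lower (22.2%, against 25.2% of all genes) and 3 were higher (3.7%, against 19.8% of all genes). In this fit, a smaller share of these genes than of all genes was called in each direction. For lower DEGs this changed under some alternatives given below. Their median log2 fold change was -0.14, beside -0.04 over all genes, and their median absolute log2 fold change was 0.28, beside 0.46.

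In MAL-BG versus MAL, 4 of the 81 were lower DEGs (4.94%, against 20.2% of all genes) and 3 were higher DEGs (3.7%, against 10.2% of all genes). By adjusted p alone, 10 were lower (12.3%, against 24.1%) and 8 were higher (9.88%, against 20.2%). The median log2 fold change was 0.06, beside -0.03 over all genes. The comparisons with CON and with MAL share the 7 MAL-BG libraries.

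Both counts of lower DEGs moved with the processing. By DESeq2, 11 of the 81 were lower DEGs versus CON, all among the 13, and 5 versus MAL, including all 4. With offsets for transcript length and GC content, 30 of the 81 were lower DEGs versus CON, including all 13, and 17 versus MAL, including all 4. The median versus MAL turned to -0.22. Of all 14565 genes, 3084 were lower DEGs versus CON and 2855 versus MAL with these offsets, a smaller share than of the 81 in both comparisons. With mean log2 CPM scaling added to the offsets, 15 were lower DEGs versus CON, including 11 of the 13. Versus MAL 6 were, including all 4. Of all 14565 genes, 2332 were lower DEGs versus CON and 2137 versus MAL in that setting. Without CON replicate 1, 22 were lower DEGs versus CON, beside 3428 of the 14544 genes then tested. Without CON replicate 2, 7 were, beside 2716 of 14524. CON replicate 1 and MAL replicates 1 and 4 were also left out together, a choice made after the data were seen. Then 22 were lower DEGs versus CON and 12 versus MAL, beside 3438 and 3180 of the 14478 genes tested.

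**Figure D2:**
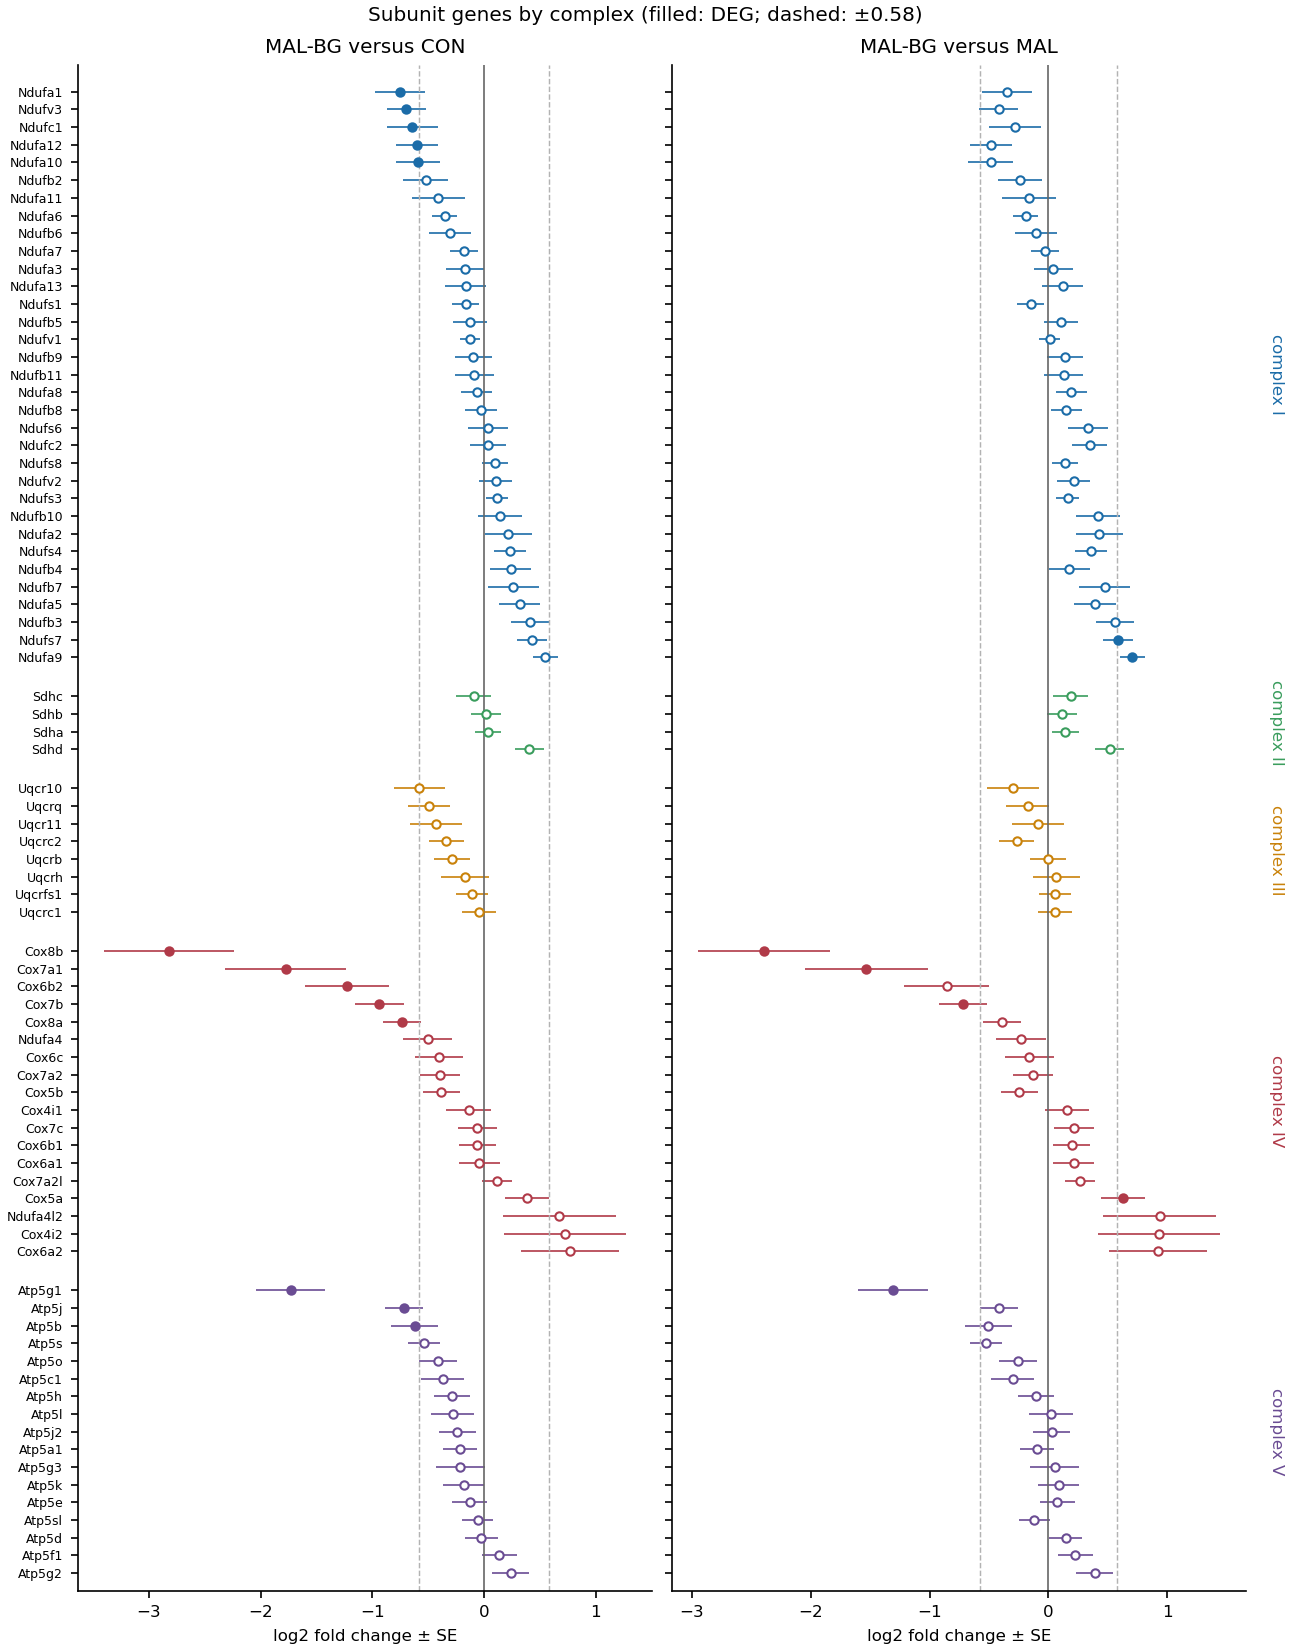
Log2 fold change ± SE (edgeR) of 80 of the 81 genes, grouped and colored by complex and sorted by MAL-BG versus CON, with MAL-BG versus CON on the left and MAL-BG versus MAL on the right. Filled points are DEGs and dashed lines mark 0.58 on either side of 0. Most genes lie within the dashed lines, 13 filled points lie to the left of them versus CON, and Cox8b has the lowest value in both panels.

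Complex I was split. Versus CON, 5 of its 34 genes were lower DEGs, all of them accessory subunits, and the complex median was -0.08, while versus MAL 2 were higher DEGs, 0 were lower DEGs by edgeR or DESeq2 with 3 lower at an unadjusted p under 0.05, and the median was 0.14 (with the length and GC offsets, -0.18 and 5 lower DEGs). The 7 core subunits, most of which carry the flavin or iron-sulfur clusters or bind ubiquinone, had a median of 0.10 versus CON and 0.16 versus MAL. The 27 accessory subunits had a median of -0.10 versus CON and 0.13 versus MAL.

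Ndufa9, an accessory subunit of the arm that reaches into the matrix, was the only one of the 81 genes whose 7 MAL-BG libraries all lay above all 9 CON and MAL libraries, a separation found for 6.17% of all genes tested. It was at 63.1, 78.7, 81.5 and 76.8 CPM in CON and at 59.2, 78.3, 62, 67.4 and 70.4 CPM in MAL. Its lowest, median and highest MAL-BG values were 95.1, 109 and 129 CPM. The log2 fold change was 0.55 ± 0.11 versus CON (SE, edgeR adjusted p = 0.000997), just under the threshold of 0.58, and 0.70 ± 0.10 versus MAL (adjusted p = 0.000104), or 0.47 and no longer a DEG with the length and GC offsets. No member had all 7 MAL-BG libraries below the other 9, a separation found for 6.36% of all genes tested.

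Ndufs7, the core subunit whose iron-sulfur cluster hands electrons to ubiquinone, moved the same way with some overlap. Its values were 61.1, 68.1, 65.6 and 54.7 CPM in CON, 49.8, 57.4, 54.1, 61.3 and 57.7 CPM in MAL, and 58.1, 90.9 and 98 CPM as the lowest, median and highest of MAL-BG. The log2 fold change was 0.43 ± 0.13 versus CON (edgeR adjusted p = 0.0156) and 0.58 ± 0.13 versus MAL (adjusted p = 0.00155), the latter so close to the threshold that the call was lost under several alternatives, with 0.57 in the fit of the 2 groups alone and 0.31 with the length and GC offsets. The core subunits Ndufv1 (which binds NADH and FMN), Ndufs1 and Ndufs8 were at -0.12, -0.16 and 0.10 versus CON, and none passed an adjusted p of 0.05.

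The lowest complex I genes were Ndufa1, an essential small subunit of the membrane arm encoded on the X chromosome, and Ndufv3, an accessory subunit of the NADH-binding module. Ndufa1 was at 42.2, 105, 72 and 64 CPM in CON, at 36.9, 72.2, 56.7, 39.3 and 61.6 CPM in MAL, and at 32.8, 40.6 and 54.5 CPM (lowest, median, highest) in MAL-BG. Its CON and MAL-BG values overlapped through CON replicate 1, and its log2 fold change versus CON was -0.75 ± 0.22 (edgeR adjusted p = 0.0115), or -0.52 without CON replicate 2, which is no longer a DEG. Ndufv3 fell in both comparisons by adjusted p, with -0.70 ± 0.17 versus CON (edgeR adjusted p = 0.00397) and -0.42 ± 0.16 versus MAL (adjusted p = 0.0465), the latter under the fold threshold. The other lower DEGs of the complex, Ndufc1, Ndufa12 and Ndufa10, had log2 fold changes of -0.64, -0.60 and -0.59 versus CON. All 3 lost the call without CON replicate 2, and Ndufa12 and Ndufa10 also lost it by DESeq2.

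Complex II, which links the tricarboxylic acid cycle to the respiratory chain and is wholly nuclear encoded, had no DEG. No gene of the 4 was a DEG in either comparison by edgeR or DESeq2, with 1 at an unadjusted p under 0.05 in each, and the median was 0.03 versus CON and 0.16 versus MAL. That gene was Sdhd, a membrane anchor. It was at 67.3, 93.2, 76.4 and 72.7 CPM in CON, at 59.1, 82.9, 75.9, 70.9 and 70.6 CPM in MAL, and at 76.1, 107 and 119 CPM (lowest, median, highest) in MAL-BG. The MAL-BG values overlapped with the top of both groups, and the log2 fold change was 0.41 ± 0.13 versus CON (edgeR adjusted p = 0.0174) and 0.52 ± 0.12 versus MAL (adjusted p = 0.00289). Sdha, the flavoprotein that oxidizes succinate, was at 0.04 versus CON, Sdhb, the iron-sulfur subunit, at 0.02, and Sdhc, the other anchor, at -0.09.

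In complex III all 8 genes had a log2 fold change below 0 versus CON, with a median of -0.31, against 52.5% of all genes tested. All 8 were also below 0 in MAL versus CON, with a median of -0.26. In MAL-BG versus MAL 5 of 8 were below 0, against 51.8% of all genes, and the median was -0.05. No gene was a DEG in either comparison by edgeR or DESeq2, with 3 at an unadjusted p under 0.05 versus CON and 0 versus MAL, although 4 were lower DEGs versus CON with the length and GC offsets and 3 without CON replicate 1. By adjusted p, 2 small accessory subunits fell versus CON. Uqcr10 had a log2 fold change of -0.58 ± 0.23 (edgeR adjusted p = 0.0493) with 41.3 to 101 CPM in CON and 28.2 to 62.7 CPM in MAL-BG, and Uqcrq had one of -0.49 ± 0.19 (adjusted p = 0.043) with 65.3 to 125 CPM in CON and 44.5 to 88.2 CPM in MAL-BG. Uqcr10 lay just inside the fold threshold and became a lower DEG under several alternatives, from -0.59 with upper-quartile scaling to -0.91 with the length and GC offsets. Uqcrfs1, the Rieske iron-sulfur protein, was at -0.11 versus CON and 0.05 versus MAL, and Uqcrc1 at -0.04 and 0.06.

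Complex IV held the widest spread of values, with its lowest and highest values both in isoform genes. Of its 18 genes 5 were lower DEGs versus CON, and versus MAL 3 were lower and 1 was a higher DEG. The median was -0.26 versus CON and 0.01 versus MAL. With the length and GC offsets, 9 were lower DEGs versus CON (median -0.55), and versus MAL 6 were lower and 0 were higher (median -0.34), and without CON replicate 1, 8 were lower versus CON. Ndufa4, named for complex I but now placed in complex IV, is counted here, with its paralogue Ndufa4l2.

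Among the ubiquitous subunits, Cox7b, a small subunit encoded on the X chromosome, and Cox8a, the common form of subunit 8, were lower DEGs versus CON. Cox7b was at 47.2, 106, 90.4 and 76.2 CPM in CON, at 49.1, 90.3, 80.5, 46.1 and 77.9 CPM in MAL, and at 26.8, 42.9 and 47.5 CPM (lowest, median, highest) in MAL-BG. CON replicate 1 and MAL replicates 1 and 4 were the only CON and MAL libraries near the MAL-BG range, and the log2 fold change was -0.94 ± 0.22 versus CON (edgeR adjusted p = 0.00252) and -0.72 ± 0.20 versus MAL (adjusted p = 0.00955). Without MAL-BG replicate 2, its lowest library, the value versus MAL was -0.57 and no longer a DEG. Cox8a was at 151, 292, 246 and 212 CPM in CON and at 108, 141 and 165 CPM (lowest, median, highest) in MAL-BG. This gave a log2 fold change of -0.73 ± 0.17 versus CON (edgeR adjusted p = 0.00272) and -0.39 ± 0.16 versus MAL (adjusted p = 0.0584). Cox4i1, the ubiquitous form of the regulatory subunit 4 and the most abundant of the 81 genes per length in CON, at 533 ± 120 CPM per kilobase of transcript (SD, n = 4), was at 484 ± 116 in MAL-BG (SD, n = 7). The difference from CON was -0.14 ± 0.20 on the log2 scale (edgeR adjusted p = 0.596).

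Cox5a, which with Cox5b faces the matrix side of the enzyme, was the higher DEG of complex IV versus MAL. Its values were 49, 90.8, 76.2 and 74.3 CPM in CON, 55.4, 69.1, 66.2, 58.3 and 58.5 CPM in MAL, and 53.8, 108 and 118 CPM as the lowest, median and highest of MAL-BG. The lowest MAL-BG library lay below all MAL libraries and the other 6 lay above all of them. The log2 fold change was 0.62 ± 0.18 versus MAL (edgeR adjusted p = 0.012), and 0.38 ± 0.20 versus CON (adjusted p = 0.121). The call versus MAL was lost with the length and GC offsets (0.26, or 0.49 with mean log2 CPM scaling as well), without MAL replicate 1 (0.57), without MAL-BG replicate 3 (0.56) and without the 3 libraries lowest in choroid plexus markers (0.54). Of the 42-base stretches of its transcript, 37.9% also occur in another gene or pseudogene, so reads could be split or dropped in counting.

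**Figure D3:**
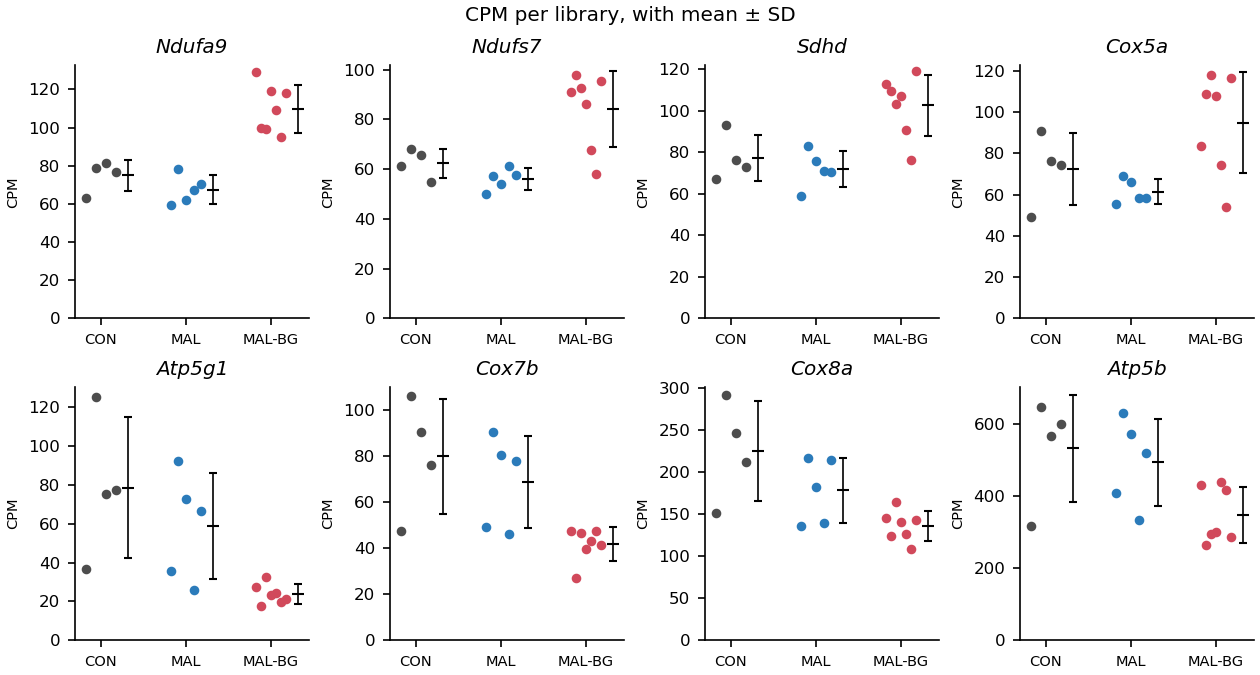
CPM of 8 genes in each library, with CON, MAL and MAL-BG on the horizontal axis and mean ± SD beside the points. The upper 4 genes (Ndufa9, Ndufs7, Sdhd and Cox5a) are higher in most MAL-BG libraries, without overlap for Ndufa9, and the lower 4 (Atp5g1, Cox7b, Cox8a and Atp5b) are lower in most, with Atp5g1 at 17.5 to 32.3 CPM in MAL-BG.

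The tissue isoforms of complex IV were at low levels, and those that passed the test were lower in MAL-BG. Cox8b and Cox7a1, the heart and muscle forms of subunits 8 and 7a, were lower DEGs in both comparisons, and Cox6b2, the testis form of subunit 6b, versus CON. Cox8b was at 5.37, 24, 12.6 and 8.33 CPM in CON, at 4.43, 13.9, 11.6, 2.01 and 14.6 CPM in MAL, and at 0.488, 1.24 and 3.86 CPM (lowest, median, highest) in MAL-BG. The MAL-BG and CON libraries did not overlap, and MAL replicate 4 lay within the MAL-BG range. The log2 fold change was -2.82 ± 0.58 versus CON (edgeR adjusted p = 0.00111) and -2.39 ± 0.56 versus MAL (adjusted p = 0.00271). Cox7a1 was at 1.31, 6.4, 4.18 and 4.09 CPM in CON, at 1.62, 5.22, 4.65, 0.806 and 4.54 CPM in MAL, and at 0.38, 0.965 and 2.43 CPM (lowest, median, highest) in MAL-BG, with a log2 fold change of -1.77 ± 0.54 versus CON (edgeR adjusted p = 0.0139) and -1.53 ± 0.52 versus MAL (adjusted p = 0.0239). The call versus CON was lost without CON replicate 2 (-1.48), and that versus MAL without MAL replicate 2 (-1.33), 3 (-1.41) or 5 (-1.42). Again CON replicate 1 and MAL replicates 1 and 4 lay with the MAL-BG libraries. Cox6b2 was at 5.45, 15.4, 13.5 and 12.8 CPM in CON and at 2.91, 4.42 and 10.9 CPM (lowest, median, highest) in MAL-BG, with -1.23 ± 0.37 versus CON (edgeR adjusted p = 0.0135) and -0.86 ± 0.36 versus MAL (adjusted p = 0.0589).

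For these 3 genes the lowest CON and MAL libraries were those with the lowest choroid plexus marker sums, a list of which 12 of 12 genes were lower DEGs versus CON, and the part of that tissue in their fall was not tested. By contrast, Cox4i2 (the form of subunit 4 known from lung and from low oxygen), Cox6a2 (the heart and muscle form of subunit 6a) and Ndufa4l2 (a hypoxia-inducible paralogue of Ndufa4) had higher means in MAL-BG, and none passed the test. Their log2 fold changes versus CON were 0.72 ± 0.55, 0.77 ± 0.44 and 0.67 ± 0.50 (edgeR adjusted p = 0.295, 0.163 and 0.29), and versus MAL 0.93, 0.92 and 0.93 (adjusted p = 0.148, 0.0784 and 0.117). Ndufa4l2 ranged from 2.91 to 28.7 CPM over the MAL-BG libraries, while CON ranged from 3.61 to 17.9 CPM. For Cox4i2 and Ndufa4l2 the lowest and highest libraries of CON were replicates 1 and 4, and of MAL-BG replicates 6 and 3. The same libraries were lowest and highest in summed endothelium and mural cell markers. These sums were 727 and 2814 CPM in CON and 1447 and 4510 CPM in MAL-BG. In MAL the highest libraries differed, and Cox6a2 was lowest in MAL-BG replicate 3 (1.52 CPM). Whether those cells contributed to the values was not tested.

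Per kilobase of transcript, the common form made up most of each subunit in all groups. Cox8b held 7.3% ± 2.72 of the summed level of subunit 8 in CON (SD, n = 4), 6.8% ± 3.21 in MAL (n = 5) and 1.87% ± 1.27 in MAL-BG (n = 7). Cox7a1 held 7.61% ± 2.24, 7.57% ± 3.48 and 3.19% ± 1.84 of subunit 7a in the same order, and Cox6b2 10.5% ± 2.19, 9.78% ± 3.21 and 5.09% ± 2.28 of subunit 6b. Ndufa4l2 held 4.93% ± 2.75, 4.97% ± 1.88 and 10.1% ± 4.68 of the sum with Ndufa4. The ubiquitous partners Cox6a1, Cox6b1, Cox7a2 and Ndufa4 had log2 fold changes versus CON of -0.04, -0.06, -0.39 and -0.50, none of which passed an adjusted p of 0.05. Cox7a2l, a relative of subunit 7a, was at 0.11 versus CON.

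**Figure D4:**
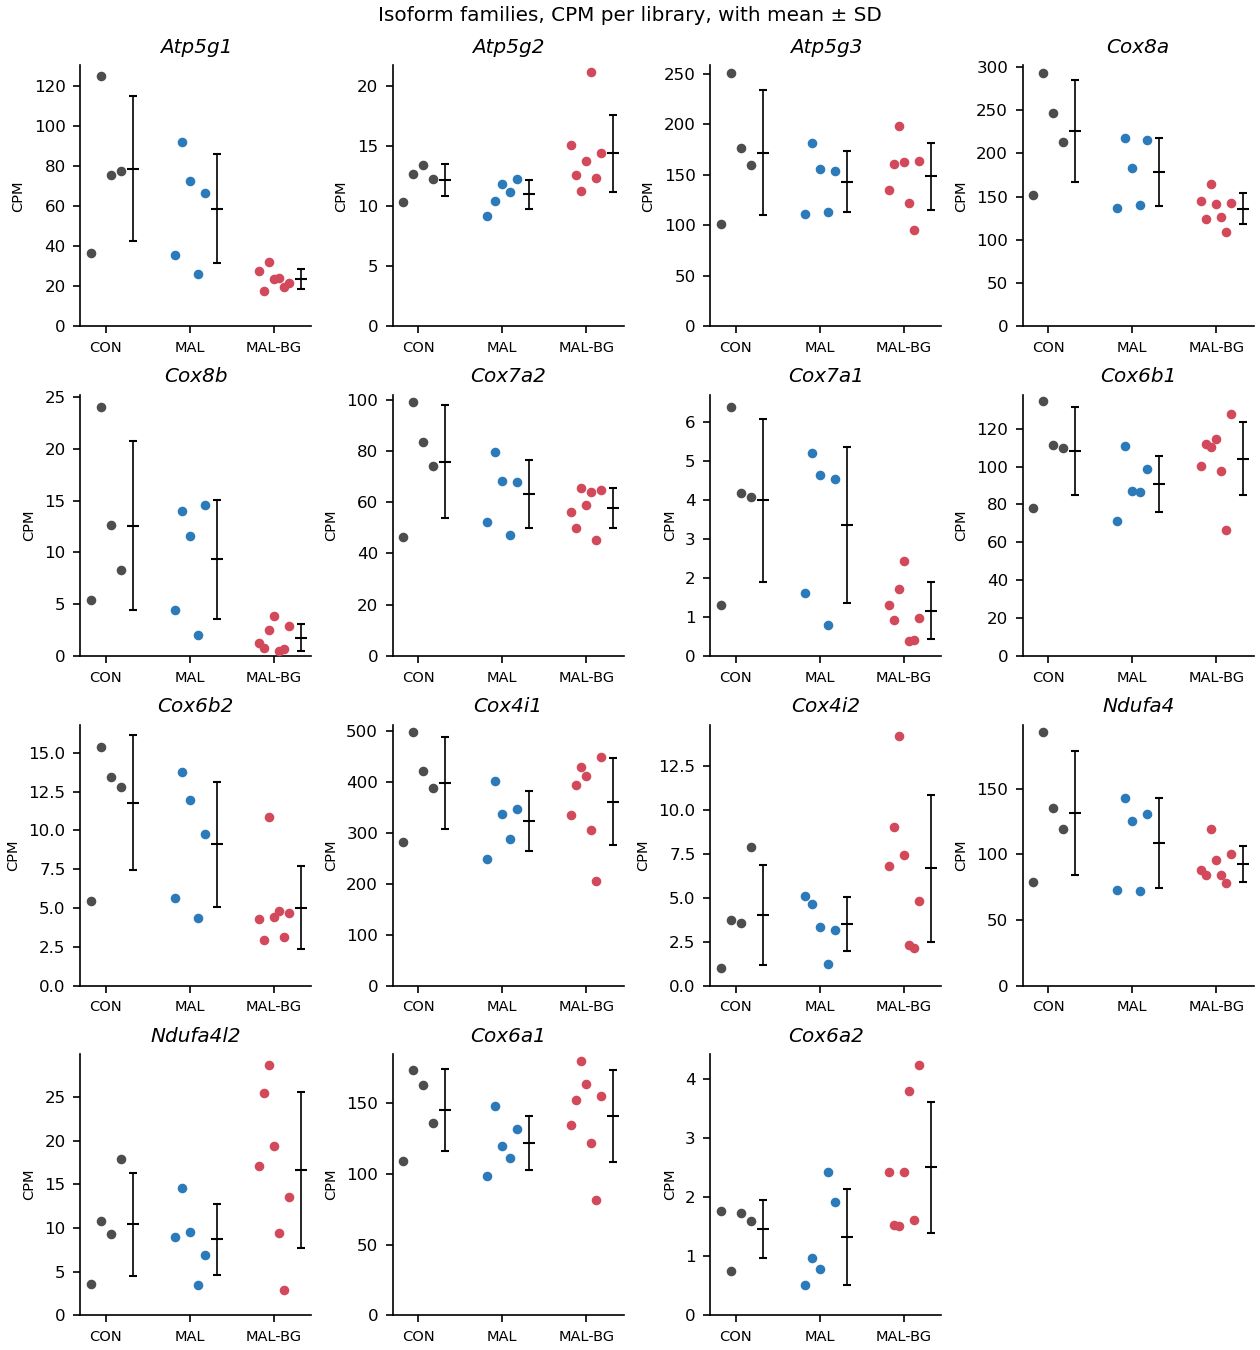
CPM per library of the isoform genes of complexes IV and V, with mean ± SD beside the points and 1 panel per gene, each with its own vertical axis from 0. Cox8b, Cox7a1, Cox6b2 and Atp5g1 are low in MAL-BG and in CON replicate 1 (the first CON point), whereas Cox4i2, Cox6a2 and Ndufa4l2 spread widely in MAL-BG.

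In complex V, 15 of 17 genes had a log2 fold change below 0 versus CON (median -0.24) and 9 of 17 versus MAL (median -0.10). Over all genes tested, 52.5% were below 0 versus CON and 51.8% versus MAL. In MAL versus CON, 16 of the 17 were below 0 (median -0.17). Versus CON, 3 were lower DEGs, and versus MAL 1 was. With the length and GC offsets, 8 were lower DEGs versus CON (median -0.55) and 5 versus MAL (median -0.31). The table also holds Atp5s, coupling factor B, and Atp5sl, an assembly factor of complex I, which carry the name but are not subunits of the enzyme. Atp5s fell by adjusted p in both comparisons, with -0.54 versus CON (edgeR adjusted p = 0.0065) and -0.53 versus MAL (adjusted p = 0.00517), under the fold threshold, and Atp5sl was at -0.06 and -0.12.

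The largest change in complex V was in 1 of the 3 genes for subunit c, the proteolipid of the rotor ring. The genes Atp5g1, Atp5g2 and Atp5g3 encode the same mature protein behind different mitochondrial targeting sequences. Atp5g1 was at 36.5, 125, 75.6 and 77.4 CPM in CON, at 35.8, 92.3, 72.5, 26 and 66.7 CPM in MAL, and at 17.5, 23.5 and 32.3 CPM (lowest, median, highest) in MAL-BG. All MAL-BG libraries were below all CON libraries, and MAL replicate 4 lay within the MAL-BG range. The log2 fold change was -1.73 ± 0.31 versus CON (edgeR adjusted p = 0.000417) and -1.31 ± 0.30 versus MAL (adjusted p = 0.00222), and it was a DEG in both comparisons under each alternative tried.

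The other 2 genes of the subunit did not follow. Atp5g3 was at 102, 251, 177 and 159 CPM in CON and at 95.5, 161 and 198 CPM (lowest, median, highest) in MAL-BG, with a log2 fold change of -0.21 ± 0.22 versus CON (edgeR adjusted p = 0.447) and 0.05 ± 0.21 versus MAL (adjusted p = 0.853). Atp5g2 was at 10.4, 12.7, 13.5 and 12.3 CPM in CON and at 11.3, 13.8 and 21.2 CPM in MAL-BG, with 0.24 ± 0.17 versus CON (edgeR adjusted p = 0.249) and 0.39 ± 0.15 versus MAL (adjusted p = 0.0496). Per kilobase of transcript, Atp5g1 made up 33% ± 3.61 of the summed subunit c level in CON (SD, n = 4), 29.9% ± 6.69 in MAL (n = 5) and 15.1% ± 2.79 in MAL-BG (n = 7), and Atp5g3 made up 62.4% ± 2.3, 65% ± 5.4 and 77.3% ± 4.51. The sum itself was 390 ± 148 CPM per kilobase for CON, 314 ± 88.4 for MAL and 268 ± 49.9 for MAL-BG. Of the 42-base stretches of Atp5g1, 66.7% also occur in pseudogenes, and of Atp5g2 87.5%, so their counts are uncertain, while Atp5g3 shares none.

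The other lower DEGs of complex V versus CON were Atp5b, the catalytic beta subunit of the F1 head, and Atp5j, coupling factor 6 of the peripheral stalk. Atp5b was at 316, 648, 567 and 601 CPM in CON, at 409, 629, 573, 334 and 519 CPM in MAL, and at 263, 299.98 and 438 CPM (lowest, median, highest) in MAL-BG. CON replicate 1 and MAL replicates 1 and 4 lay within the MAL-BG range. The log2 fold change was -0.62 ± 0.21 versus CON (edgeR adjusted p = 0.025) and -0.51 ± 0.20 versus MAL (adjusted p = 0.048), and the call versus CON was lost without CON replicate 2 (-0.52), 3 (-0.60) or 4 (-0.56) and without MAL-BG replicate 2 (-0.49), 4 (-0.52) or 7 (-0.50). Atp5a1, the other large subunit of the head, was at -0.21 ± 0.15 versus CON (edgeR adjusted p = 0.266). Atp5j was at 85.1, 149, 132 and 133 CPM in CON and at 53.2, 79.8 and 88.8 CPM (lowest, median, highest) in MAL-BG, with -0.72 ± 0.17 versus CON (edgeR adjusted p = 0.00273) and -0.41 ± 0.16 versus MAL (adjusted p = 0.0434), and its call versus CON was lost without MAL-BG replicate 2 (-0.58). Atp5f1, subunit b of the same stalk, was at 0.14 versus CON.

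Diet alone moved none of these genes past the test. In MAL versus CON, 79 of the 81 genes had a log2 fold change below 0, against 54.4% of all genes tested, with a median of -0.21 beside -0.02 over all genes. None reached an adjusted p under 0.05 by edgeR (0% of all genes tested did) or DESeq2, and 0 of the 81 had an unadjusted p under 0.05. The values ran from -0.43 (Cox8b) to 0.07 (Ndufb4). The median deviation of the 81 genes from their CON means was -0.46, 0.33, 0.11 and 0.01 on the log2 scale in CON replicates 1 to 4 and -0.50, 0.11, -0.11, -0.38 and -0.08 in MAL replicates 1 to 5. In MAL-BG the lowest was -0.52, the median -0.12 and the highest 0.04. The 4 CON libraries spanned more than the -0.21 between the groups, and the median in MAL versus CON ranged from -0.36 without CON replicate 1 to -0.11 without CON replicate 2.

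Most of these transcripts are short. The median length was 758 nt, against 2891 nt over all genes tested with a known length, and 69 of the 81 fell in the shortest of 5 length classes (64 to 1629 nt). Over all genes, the median log2 fold change versus CON was 0.17 in the shortest class and -0.33 in the longest, while the 69 subunit genes of the shortest class had a median of -0.16. Versus MAL the medians were 0.22 for all genes of that class and 0.07 for the 69. In both comparisons the subunit median was below that of all genes of the class. Within the 81 genes, Pearson's r of log2 length with log2 fold change was 0.27 when MAL-BG was compared with CON and 0.17 when it was compared with MAL, and it was 0.62 for the diet comparison of MAL with CON (n = 81 genes that share their libraries, a description only).

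**Figure D5:**
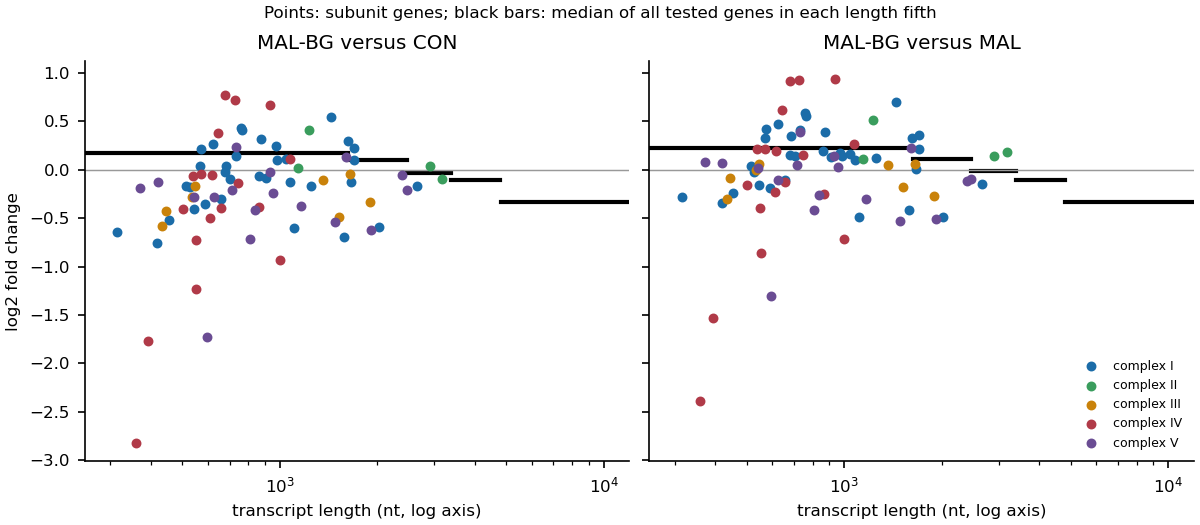
Log2 fold change against transcript length in nt (log axis) for the 81 genes, colored by complex, with MAL-BG versus CON on the left and MAL-BG versus MAL on the right. Black bars are the median over all tested genes in each of 5 length classes. The median of the points in the shortest class (-0.16 and 0.07) is below its bar, which is at 0.17 on the left and 0.22 on the right.

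Promoters of respiratory genes are known for sites of NRF1, of ETS-family factors such as GABP, and of YY1, so the members' start sites were searched for the core of each. RefSeq holds a promoter window (250 bases before the start to 50 after it, GRCm38.p6) for 67 of the 81 genes. For 46 of the 67, the bases after this start were found near the beginning of the transcript used for the gene's length. The NRF1 core GCGCATGC, searched on both strands, stood in 10 of the 67 (14.9%), against 2.8% of 27025 promoters in all. The ETS core CCGGAAG stood in 15 (22.4%, against 9.12%), the YY1 core AAGATGG in 11 (16.4%, against 6.48%) and the Sp1 core GGGCGG in 27 (40.3%, against 35.9%). The NRF1 core overlaps its own reverse complement, so that GCGCATGCGC counts as 2 matches, and an ETS core that runs on into a YY1 core shares the letters AAG with it. Shown are 30 bases around the first NRF1 match of the 10 genes, read on the strand of the gene, with all matches in capitals:
Atp5g2 (chr15:102671071-102671100, minus strand): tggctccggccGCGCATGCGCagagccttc
Atp5k (chr5:108434431-108434460, minus strand): ctttcactgcgGCGCATGCGCctttctggc
Atp5l (chr9:44920963-44920992, minus strand): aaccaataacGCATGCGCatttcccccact
Cox6a1 (chr5:115349102-115349131, minus strand): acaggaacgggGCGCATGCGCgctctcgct
Ndufa6 (chr15:82354356-82354385, minus strand): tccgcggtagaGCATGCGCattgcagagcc
Ndufa8 (chr2:36049328-36049357, minus strand): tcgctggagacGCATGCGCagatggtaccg
Ndufa11 (chr17:56717691-56717720, plus strand): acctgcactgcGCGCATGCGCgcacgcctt
Sdhb (chr4:140961206-140961235, plus strand): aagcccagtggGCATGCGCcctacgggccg
Uqcr11 (chr10:80406807-80406836, minus strand): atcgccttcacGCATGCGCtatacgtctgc
Uqcrc1 (chr9:108936667-108936696, plus strand): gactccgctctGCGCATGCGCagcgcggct

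None of these 10 genes was a DEG in either comparison by edgeR, while 13 of the 57 genes without the core (22.8%) were lower DEGs versus CON, against 21.7% of all genes tested. Their median log2 fold change was -0.12 versus CON and 0.07 versus MAL, beside -0.16 and 0.05 for the 57 genes without the core. Among the subunit c genes, Atp5g2 holds the NRF1 core and Atp5g1 and Atp5g3 do not in this window. The 11 genes with the YY1 core had medians of -0.03 versus CON and 0.22 versus MAL, beside -0.18 and 0.04 for the 56 without it. The 11 hold both higher DEGs of complex I versus MAL, Ndufa9 and Ndufs7, and also Ndufc1, a lower DEG versus CON (-0.64). The 15 with the ETS core hold Sdhd and also Cox8a, a lower DEG versus CON (-0.73). For either motif, 1 of the genes that hold it was a lower DEG and 0 were higher DEGs versus CON by edgeR. Of the 27 genes with the Sp1 core 7 were lower DEGs versus CON, and of the 40 without it 6 were (15%), beside 21.7% of all genes tested. Versus MAL the order was the other way, with 0 of the 27 and 4 of the 40 lower DEGs by edgeR, beside 20.2% of all genes. A link between these motifs and the calls was not tested. Sdhd also holds the Sp1 core, which is not shown. The YY1 and ETS matches of the genes higher by adjusted p in both comparisons are shown in the same way:
Ndufa9, YY1 core (chr6:126849097-126849126, minus strand): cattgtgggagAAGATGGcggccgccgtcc
Ndufs7, YY1 core (chr10:80249462-80249491, plus strand): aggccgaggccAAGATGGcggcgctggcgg
Sdhd, ETS core (chr9:50603877-50603906, minus strand): ccgtctcctgcCTTCCGGttcacgcttcag
In Ndufa9 and Ndufs7 the YY1 core lies 29 and 24 bases after the start site on which the window was placed. For Ndufs7 the annotated gene begins earlier, at chr10:80249105, before the window. A match describes these letters and is not a measured binding site.

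Genes that serve the same complexes are given by list, beside the 11.4% higher and 21.7% lower DEGs among all genes versus CON and the 10.2% and 20.2% versus MAL. Of 47 assembly factors tested, 6 were higher (12.8%) and 2 were lower (4.26%) DEGs versus CON, and 5 were higher (10.6%) and 1 was lower (2.13%) versus MAL, with medians of 0.16 and 0.21. The highest was Sco2, a copper chaperone of complex IV, at 1.02 ± 0.24 versus CON (edgeR adjusted p = 0.00285), and the lowest Atpaf1, a chaperone of the beta subunit of ATP synthase, at -1.07 ± 0.41 (adjusted p = 0.0439). Of 19 genes for electron carriers and coenzyme Q, 3 were lower (15.8%) and 0 were higher DEGs versus CON by edgeR (0 higher and 7 lower at an unadjusted p under 0.05), with a median of -0.35. The lowest was Coq10b, a coenzyme Q binding protein, at -1.08 ± 0.15 (edgeR adjusted p = 6.2e-05), and the highest Coq2, an enzyme of coenzyme Q synthesis, at 0.27 ± 0.16. Of 19 genes of the tricarboxylic acid cycle and its entry, 5 were lower DEGs versus CON (26.3%) and 4 versus MAL (21.1%), near the shares of all genes, with medians of -0.30 and -0.24. Pcx, which replenishes oxaloacetate from pyruvate, was the lowest at -1.43 ± 0.24 (edgeR adjusted p = 0.000239), and Pdhx, a component of the pyruvate dehydrogenase complex, the highest at 0.30 ± 0.12.

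Among 21 regulators of mitochondrial biogenesis and mitochondrial DNA, 4 were higher (19%) and 1 was a lower DEG (4.76%) versus CON. Peo1, the mitochondrial DNA helicase now named Twnk, was the highest at 1.25 ± 0.24 (edgeR adjusted p = 0.000654), and Ppargc1a, the coactivator PGC-1alpha, the lowest at -1.77 ± 0.53 (adjusted p = 0.0119). In MAL-BG Ppargc1a was at 2.97 CPM on average, against 10.2 CPM in CON. Of 13 inner membrane carriers and porins, 2 were lower DEGs versus CON (15.4%) and 1 versus MAL (7.69%). Slc25a4, an ATP and ADP exchanger, was the lowest at -0.79 ± 0.20 (edgeR adjusted p = 0.00495), and Slc25a11, the oxoglutarate carrier, the highest at 0.38 ± 0.10 (adjusted p = 0.00716). Of 3 uncoupling protein genes, Ucp2 and Slc25a27 were lower DEGs in both comparisons. Ucp2, the one that myeloid cells express most, was at -1.13 ± 0.25 versus CON (edgeR adjusted p = 0.00164), and Slc25a14 was at 0.36 ± 0.19. The 13 mitochondrially encoded subunits were not analysed here. Of subunits that the names leave out, Usmg5 of complex V fell, with -0.999 ± 0.24 versus CON (edgeR adjusted p = 0.00355) and -0.69 ± 0.23 versus MAL (adjusted p = 0.0236). Cyc1, the cytochrome of complex III, was at -0.37 ± 0.15 versus CON (adjusted p = 0.0603), and Ndufab1 of complex I at -0.42 ± 0.21 (adjusted p = 0.108).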

How the data were processed

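RNA-Seq of CD11b+ cells was analysed for 16 libraries in 3 groups. The authors used STAR for alignment and HTSeq for counting, and the deposited table holds whole counts per gene that were not normalized. The annotation and the counting mode are not given in the sources used here. Columns were mapped to groups by their names. The counts were analysed with edgeR 4.0.16 in R 4.3.3, with TMM scaling, a joint quasi-likelihood fit of the 3 groups and Benjamini-Hochberg adjustment over the 14565 genes that had over 10 counts in 4 libraries or more. The study's model had a batch term, which could not be fitted here because the batch of each library is not given in the sources used here. CPM were counts relative to the TMM-scaled library total. Every pair of replicates differed by more than counting noise (lowest chi-square over its degrees of freedom 9.85), so the spread between mice sets the precision. Depth is given in the report.

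The subunit genes and the gene lists were chosen with earlier results of these data known. Genes named were, in each complex, the 2 highest and the 2 lowest by log2 fold change in MAL-BG versus CON, the catalytic core, the isoform families, genes called against the median of their complex, and the highest and lowest gene of each pathway list. The values of 1 gene that this rule names are not reported here. Any other gene was named after its values were seen. Length, GC content and 42-base stretches shared with other genes came from 1 GENCODE M21 transcript per gene (length known for 99.3% of genes tested), and promoters and their coordinates from RefSeq. The fit was tested on simulated data. Alternatives were other scalings, DESeq2 1.42.0, other filters, fits of 2 groups alone, thinned libraries, offsets for length and GC content, and each library left out in turn.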

Additional observations from a re-analysis of the deposited data

Results flagged for a closer look

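In 117 checks of 1 gene in 1 group (38 genes with CON, MAL and MAL-BG values, and the share of counts), 4 libraries stood apart from the rest of their group by Dixon's test, which by chance marks about 5% of groups. Ndufv1 was at 73.87 CPM in CON replicate 1, against 83.86 to 85.31 CPM in the other 3. Cox6b2 was at 10.89 CPM in MAL-BG replicate 3, against 2.91 to 4.83 CPM in the other 6. Cox7b was at 26.82 CPM in MAL-BG replicate 2, against 39.79 to 47.54 CPM in the other 6. Atp5g2 was at 21.15 CPM in MAL-BG replicate 5, the library with the highest neutrophil marker sum (14272 CPM), against 11.3 to 15.09 CPM in the other 6. The part of other cells in these values was not tested.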

How the results depend on the processing

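No paired analysis was possible because the columns of the count table carry running numbers that match no sample title. The count of lower DEGs among the 81 genes versus CON (13) was 30 with offsets for length and GC content and 22 without CON replicate 1 and MAL replicates 1 and 4, an alternative chosen after seeing the data. By adjusted p alone these were 47 and 34, against 18, and the median with offsets was -0.41. Versus MAL, lower DEGs (4) were 17 and 12, lower genes by adjusted p (10) 25 and 23, higher DEGs (3) 0 and 1, and higher genes by adjusted p (8) 2 and 5, and the median with offsets was -0.22. With the offsets and scaling by mean log2 CPM, 1 gene was a higher DEG versus MAL; that scaling moved the median of all genes to 0.20 versus CON and 0.19 versus MAL and their DEGs to 3206 higher and 2332 lower versus CON (from 1659 and 3161) and 2895 and 2137 versus MAL (from 1479 and 2944), and left 0 higher and 15 lower DEGs among the 81 versus CON. DESeq2 gave 5 higher by adjusted p versus CON and 5 higher DEGs versus MAL. Versus MAL, upper-quartile scaling gave 5 higher by adjusted p, and DESeq2 size factors and no filter gave 6 and 5 lower. With each library left out in turn, DEGs versus CON were 0 to 1 higher and 7 to 22 lower (by adjusted p, 1 to 6 and 8 to 33; median -0.28 to -0.04), and versus MAL 1 to 6 higher and 3 to 7 lower (by adjusted p, 5 to 14 and 4 to 12; median -0.02 to 0.13). In MAL versus CON all counts stayed at 0, with medians of -0.36 to -0.11. The cause of these shifts was not tested.

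Genes that changed sign had log2 fold changes that were not DEGs. With the offsets these were Ndufs8 (-0.097), Sdhb (-0.24), Cox7a2l (-0.17), Atp5f1 (-0.0744), Atp5g2 (-0.019) versus CON and Ndufs8 (-0.14), Ndufv1 (-0.19), Sdhb (-0.20), Uqcrc1 (-0.12), Uqcrfs1 (-0.20), Cox4i1 (-0.19), Cox6a1 (-0.10), Cox6b1 (-0.17), Cox7a2l (-0.037), Atp5g3 (-0.31) versus MAL. With the offsets and mean log2 CPM scaling they were Sdhc (0.18), Uqcrc1 (0.097) versus CON and Ndufs1 (0.018), Atp5a1 (0.066), Atp5g3 (-0.080) versus MAL. With upper-quartile scaling they were Sdhb (-0.0008848) versus CON and Ndufv1 (-0.015) versus MAL. Without the 3 libraries they were Sdha (-0.094), Sdhb (-0.13), Atp5f1 (-0.027) versus CON and Ndufv1 (-0.072), Uqcrc1 (-0.091), Uqcrfs1 (-0.073), Cox4i1 (-0.016), Atp5g3 (-0.16) versus MAL. With each library left out, signs changed for Atp5f1 (-0.027 to 0.25), Atp5g3 (-0.42 to 0.0060), Cox6a1 (-0.18 to 0.057), Cox6b1 (-0.21 to 0.045), Sdha (-0.094 to 0.13), Sdhb (-0.13 to 0.13), Sdhc (-0.23 to 0.031), Uqcrc1 (-0.20 to 0.059), Uqcrfs1 (-0.26 to 0.043) versus CON and for Atp5g3 (-0.038 to 0.14), Ndufv1 (-0.050 to 0.082), Uqcrc1 (-0.018 to 0.15), Uqcrfs1 (-0.034 to 0.11) versus MAL.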
